A study of Drosophila melanogaster with 2 samples.

Results

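The 200 regions described here were the strongest of 30000 in a list of Daughterless binding made from both replicates of a chromatin immunoprecipitation (ChIP-seq) experiment in *Drosophila melanogaster* embryos. They were selected on pooled signal, the value in the list's signal column, so their height is a description and supports nothing. The sources used here do not define that column; it is read as a height that the authors' caller gave each region. All 200 were in the shorter list of 1941 regions that passed the authors' filter on how reproducibly regions rank between replicates. The lowest signal of that list, 64.2, was also the signal of rank 1941 in the pooled list. The strongest 200 therefore fall in the shorter list by the choice itself, and their presence there supports nothing about their reproducibility. The other 1741 regions of that list are the reference below. The members held 24.8% of the summed signal of the 1941 regions. No region had the same signal as another at the edge of the list. Ranks 198, 199 and 200, at CG8892, Mic26-27 and Tsp42El, had signals of 170.8, 170.5 and 169.9. The next 3 regions, at CG10747, CG10651 and Psc, had signals of 169.7, 169.5 and 169.4.

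The material was 0 to 24 h old whole embryos, male and female pooled, of the transgenic line da-GFP, which carries da with GFP at its C-terminal end (da-eGFP in the labels). There was 1 group with 2 biological replicates, numbered 2 and 3 in the labels, and both carried the same insertion. Sonicated chromatin, 200 to 800 bp in size, was pulled down through an anti-GFP antibody. The labels do not state what drives the fusion or whether the untagged protein was also present. A control entered the calling according to the deposited notes and was not analysed here. The lists carry no read counts, so depth is unknown. In pooled whole embryos, fewer bound cells and less binding per cell cannot be told apart.

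Daughterless is the class I basic helix-loop-helix protein (E protein) of the fly. It pairs with tissue-specific proteins of the same family, such as those encoded by the achaete-scute genes, and the dimers bind short palindromic sites called E-boxes, spelled CANNTG. It is known for roles in the formation of neural precursors, in sex determination and in the growth control of many tissues.

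The DNA at the summits, the base that the caller marked as each region's highest point, is shown first because strong regions with and without an E-box lie side by side in the list. Each sequence is the pooled summit with 50 bp on each side (the summit window), read 5′ to 3′ on the plus strand of the Release 6 assembly (dm6) from RefSeq. In the first 4, taken from the promoters of PNPase, ph-p and Atat and an intron of CG9663, no E-box of any form was found, and capitals mark the longest run of A and T, or the first of them where runs are equally long.
PNPase, chr3R:31404613-31404713: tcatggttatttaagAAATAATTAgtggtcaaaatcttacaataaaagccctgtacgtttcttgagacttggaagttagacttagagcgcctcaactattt
ph-p, chrX:2137297-2137397: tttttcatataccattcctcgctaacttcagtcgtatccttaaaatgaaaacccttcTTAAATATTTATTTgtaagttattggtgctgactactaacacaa
Atat, chr3L:9426822-9426922: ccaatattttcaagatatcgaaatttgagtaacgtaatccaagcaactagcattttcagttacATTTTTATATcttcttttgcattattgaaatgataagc
CG9663, chr2L:3302132-3302232: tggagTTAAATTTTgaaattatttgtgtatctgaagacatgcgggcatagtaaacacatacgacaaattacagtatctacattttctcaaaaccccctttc
In the next 4, capitals mark the E-box CAGCTG. The windows of CG32264 and brat also hold an E-box of another form, left in lower case.
RpS27, chr3R:25247474-25247574: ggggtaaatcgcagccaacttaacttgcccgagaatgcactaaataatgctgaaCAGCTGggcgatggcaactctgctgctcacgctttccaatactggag
CG32264, chr3L:3785129-3785229: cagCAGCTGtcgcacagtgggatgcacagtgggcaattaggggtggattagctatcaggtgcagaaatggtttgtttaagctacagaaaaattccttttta
brat, chr2L:19155122-19155222: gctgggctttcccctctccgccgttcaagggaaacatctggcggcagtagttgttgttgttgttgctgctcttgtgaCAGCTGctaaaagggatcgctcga
CG3552, chr3L:9457815-9457915: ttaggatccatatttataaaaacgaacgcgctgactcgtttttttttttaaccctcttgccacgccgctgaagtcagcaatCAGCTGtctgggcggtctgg
The last pair holds TATCGATA, the element bound by the promoter factor DREF, in capitals.
RpS10b, chrX:19597941-19598041: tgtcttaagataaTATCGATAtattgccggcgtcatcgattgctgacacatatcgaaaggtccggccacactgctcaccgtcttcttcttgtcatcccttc
eEF1gamma, chr3R:29220094-29220194: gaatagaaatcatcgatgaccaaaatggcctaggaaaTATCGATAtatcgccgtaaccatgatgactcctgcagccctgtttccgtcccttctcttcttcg

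The 4 windows without an E-box belong to regions of rank 12, 13, 15 and 18, with pooled signals of 526, 509, 471 and 440. Their GC contents were 33.7%, 30.7%, 27.7% and 33.7%. The windows with CAGCTG belong to ranks 32, 69, 82 and 110, with signals of 352, 256, 237 and 208 and GC contents of 50.5%, 44.6%, 54.5% and 46.5%. The windows with TATCGATA belong to ranks 145 and 186, with signals of 191 and 176. The sequences were chosen to show each kind and do not give the frequency of any. Ranks 11, 14, 16 and 17, which are not shown, hold an E-box of a form other than CAGCTG.

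Pooled signal fell steeply along the list. It was 877 at rank 1, 533 at rank 11, 299.99 at rank 50, 218 at rank 100 and 169.9 at rank 200, with a median of 217 over the 200 members. The other 1741 regions had a median of 84.4 and spanned 64.2 to 169.7. Every member was at the ceiling of the deposited −log10 q-value, 3.54, so q-values do not order them. Members had a median width of 240 bp with a range of 99 to 396 bp, and 63 of 200 (31.5%) had the full 396 bp, none of them above rank 67. Of the other regions, 1715 of 1741 (98.5%) had the full width.

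In the single-replicate lists, every member had a region whose summit lay within 200 bp in replicate 2 and in replicate 3. Replicate 2 signals of the members ran from 52.7 to 392 with a median of 104.8, and replicate 3 signals from 42.9 to 495 with a median of 118. The pooled value was close to the sum of these at all but 2 members, so they are not independent of the choice of members. The log2 ratio of replicate 2 over replicate 3 had a median of −0.21 and a standard deviation of 0.38 over the 200 members. It had a median of −0.18 and a standard deviation of 0.61 over the 1728 other regions matched in both replicates. Replicate 2 gave the higher value at 58 members (29.0%) and at 639 of the 1728 other regions with both values (37.0%). The scales of the replicate lists were not made equal by the authors in any step recorded in the sources, so scale and binding cannot be told apart in a ratio below 0. At 37 members the replicates differed by over 1.5-fold and at 2 by over 2-fold.

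**Figure D1:**
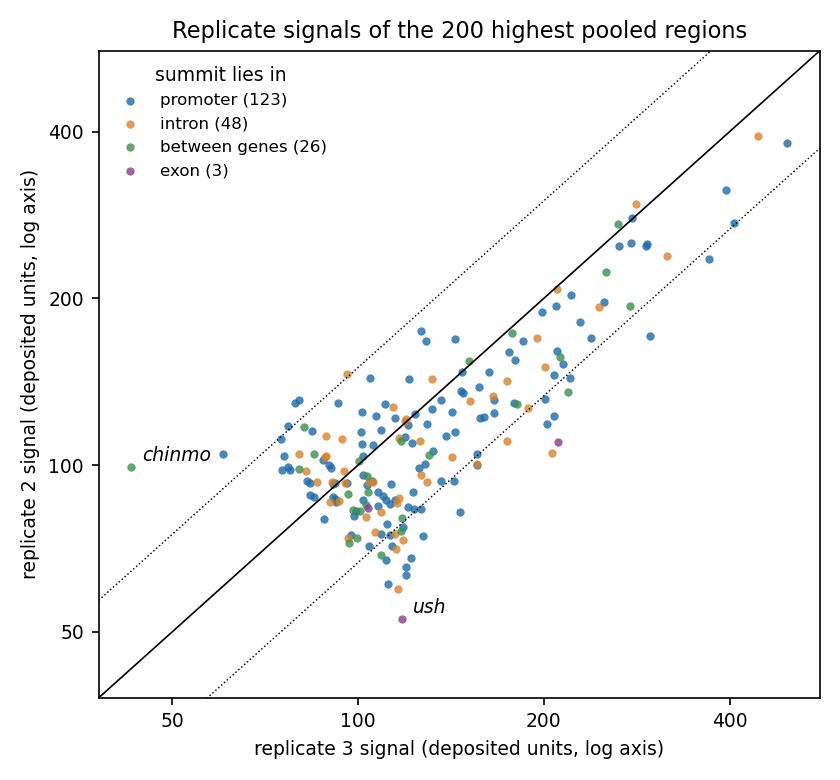
Signal in replicate 2 against replicate 3 for each of the 200 members, in the units of the deposited lists on log axes, coloured by where the pooled summit lies. The solid line marks equal values and the dotted lines a 1.5-fold difference; the members at chinmo (99.2 in replicate 2 and 42.9 in replicate 3) and ush (52.7 in replicate 2 and 118 in replicate 3) lie farthest from the solid line.

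The 2 largest inequalities were near the foot of the list. The region of rank 195, between genes and 12360 bp upstream of chinmo, which encodes a BTB zinc-finger protein of neuronal temporal identity, had 99.2 in replicate 2 and 42.9 in replicate 3. It was rank 118 in replicate 2 and rank 1265 in replicate 3, a log2 ratio of 1.21. Its pooled signal of 173 was 1.21 times the sum of its replicate values, and that of CG6511 was 1.31 times the sum. These were the only 2 members outside 0.9 to 1.1 times the sum, and whether the replicate regions matched to them hold all of their signal was not tested. Without both, the standard deviation of the log2 ratio was 0.36 over 198 members. CG6511, aay (a phosphoserine phosphatase), CG5611 and E23 (an ABC transporter) followed on that side, with log2 ratios of 0.79, 0.71, 0.71 and 0.61. On the other side was rank 196, in the 5′ UTR of ush, which encodes the fly's FOG-type zinc-finger cofactor of GATA factors. It had 52.7 in replicate 2 and 118 in replicate 3, a log2 ratio of −1.16. Adf1, a MADF-domain transcription factor, had 105.2 and 206 in the same order (−0.97). The members at sba, Cib2 and Ptpmeg2 had log2 ratios of −0.96, −0.94 and −0.92.

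Of the 200 members, 137 (68.5%) were among the 200 highest of both replicates, 31 of replicate 2 alone and 31 of replicate 3 alone. Tsp42El, rank 200, was among the 200 highest of neither. By successive groups of 50, the number in both was 50, 49, 30 and 8, a decline that choosing and ordering on the sum produces by itself. Over the 200 members, which share their libraries, the replicate signals had a Spearman rho of 0.61 and a Pearson r of 0.76 on log2 values. Within the lower 100 members rho was −0.69, a value that the choice itself pushes below 0, because the replicates of regions with nearly equal sums can only trade signal.

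A list chosen on 1 replicate and read in the other avoids that dependence. Of the 200 highest regions of replicate 2, 137 were among the 200 highest of replicate 3 (68.5%; 95% Wilson interval 61.8 to 74.5%), and all 200 were among its 1941 highest. Their median rank in replicate 3 was 116 and their lowest place 1280. Of the 200 highest of replicate 3, 137 were among the 200 highest of replicate 2, in effect the same overlap read from the other side. Among the 1941 highest of replicate 2 were 199 of them, with a median rank of 117.5 and a lowest place of 3103. The summit gaps below are again those of members chosen on pooled signal, so they do not avoid that dependence. The replicate summits lay closer together in the members than in the other regions. Region widths also differed between these groups, and their part in the gap was not tested. The gap between the summits of replicates 2 and 3 had a median of 17.5 bp in members and 30 bp in the other regions. It was at most 20 bp in 110 of 200 members (55.0%; 48.1 to 61.7%) and 674 of 1728 others (39.0%; 36.7 to 41.3%). These intervals, and all that follow, cover counting error over regions only, and no difference between the members and the other regions was tested.

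Promoters held most of the members. The summit lay within 500 bp of the transcription start site (TSS) of a protein-coding gene in 123 of 200 members (61.5%; 54.6 to 68.0%) and in 946 of the other 1741 (54.3%; 52.0 to 56.7%). By successive groups of 50 the number was 30, 35, 30 and 28. Introns held 48 members (24.0%; 18.6 to 30.4%) and 529 others (30.4%; 28.3 to 32.6%). Between genes, which here means outside every protein-coding gene, were 26 members (13.0%) and 223 others (12.8%). A summit of this class can lie in or near a noncoding gene. A coding exon held 2 members, a 5′ UTR held 1, and a 3′ UTR held none of the members and 15 of the others. The members within 500 bp of a TSS touched 172 protein-coding genes, 1.23% of the 13945 annotated.

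Promoter members sat upstream of the start. The summit was upstream of the nearest TSS in 108 of 123 promoter members (87.8%; 80.9 to 92.5%), with a median position of −120 bp, and in 741 of 946 other promoter regions (78.3%; 75.6 to 80.8%), with a median of −72 bp. The largest single class of 100 bp was 200 to 100 bp upstream in members, with 43 of 123 (35.0%). In the other regions it was the 100 bp just before the start, with 367 of 946 (38.8%), against 35 of 123 members (28.5%). A divergent pair of promoters held 47 of 123 promoter members (38.2%) and 356 of 946 others (37.6%). Outside promoters the median distance to a TSS was 2314 bp in members and 2684 bp in others.

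**Figure D2:**
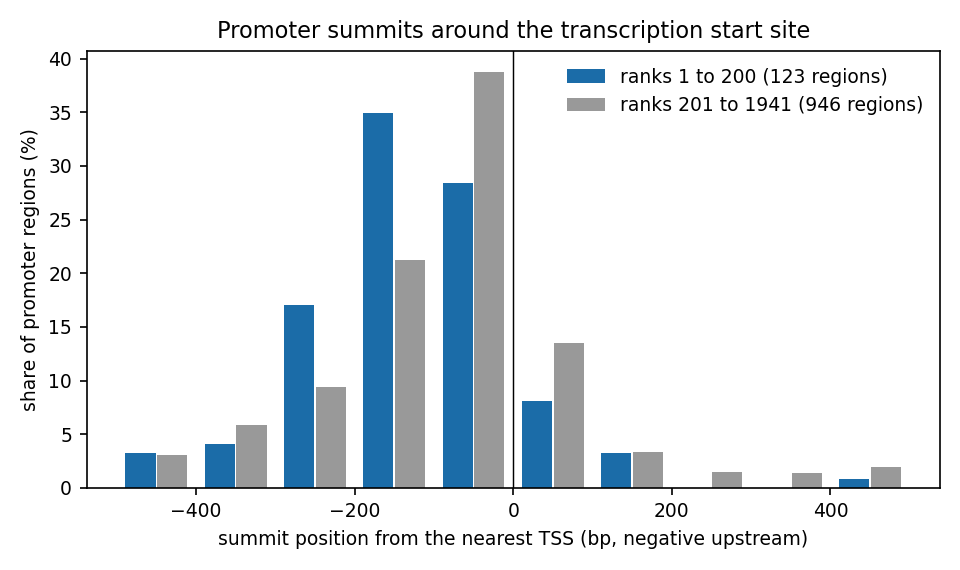
Position of the pooled summit relative to the nearest protein-coding TSS in classes of 100 bp, as a share of the promoter regions among the 200 members (blue, 123 regions) and among the other thresholded regions (grey, 946 regions). The members peak 200 to 100 bp upstream (35.0%), the others in the 100 bp next to the start (38.8%).

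The strongest promoter members after the first 10 carried genes of varied function. PNPase, rank 12, encodes the mitochondrial polynucleotide phosphorylase. Its region had 252 in replicate 2 and 277 in replicate 3, with the summit 77 bp inside the gene. The region of ph-p, a subunit of Polycomb repressive complex 1, had 248 in replicate 2 and 265 in replicate 3, and its summit lay 492 bp upstream. The divergent pair Atat, an α-tubulin acetyltransferase, and Shc, an adaptor of receptor tyrosine kinases, shared a region with 171 in replicate 2 and 297 in replicate 3. CenG1A shared one with mRpS23 of the mitochondrial ribosome, and CHMP2B, a subunit of the ESCRT-III membrane-remodelling complex, shared one with Tcs5, with pooled signals of 448 and 424. In each of these 5 regions replicate 3 was the higher.

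Promoters at ranks 21 to 40 included further regulators and housekeeping genes. The RNA-binding protein gene larp had a pooled signal of 403, with 169.9 in replicate 2 and 238 in replicate 3. Sox14, an HMG-box transcription factor, had 375, and gish, a casein kinase I, had 373. Rtnl1, the reticulon of the endoplasmic reticulum, had 352. Atf3, a bZIP transcription factor, had 335, and TRAM, a protein of the translocation channel in the endoplasmic reticulum, had 331. The pair CG9147 and Fbw5 had 387, and GstE13, a glutathione S-transferase, had 406. CG31145, CG5098, RpS27, Pdrg1 with Pal1, tank with CG12194 and CG8360 with CG8372 were the other promoters of these ranks, with signals between 321 and 413. All had the higher value in replicate 3.

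After the first 10 members, those in introns were led by CG9663, rank 18, with 192.7 in replicate 2 and 246 in replicate 3, and by CG32772, rank 20, with 208 and 209.9 in the same order. In osa, a subunit of the Brahma chromatin remodelling complex, the summit lay 13934 bp downstream of the nearest start and the pooled signal was 364. Tlk, the tousled-like kinase, had 349.7, and Trl, which encodes GAGA factor, had 318. The replicate values at Trl were 142 in replicate 2 and 174.6 in replicate 3.

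Members between genes were also found near the head of the list. Rank 11 lay 5094 bp downstream of the start of CG4004 on chromosome X, with 272 in replicate 2 and 264 in replicate 3, the only member of ranks 11 to 40 with the higher value in replicate 2. The noncoding genes lncRNA:CR44619 and lncRNA:Vinr lay within 500 bp of its summit. Rank 14, nearest to CG13323 at 11908 bp, had 193.6 in replicate 2 and 276 in replicate 3. Rank 16 lay 2910 bp upstream of hll, with lncRNA:CR31840 within 500 bp, and had a pooled signal of 470.5. CycB, the mitotic cyclin B gene, had a member 3353 bp downstream of its start, beyond the 3′ end of the gene, with 368. The member of rank 30 was 3171 bp upstream of tara, a gene of the trithorax group, with 358. Of the 2 members in coding exons, rank 39 lay in otp, a homeobox gene, with 110.1 in replicate 2 and 211 in replicate 3, and rank 161 lay in Pde1c, with 83.5 and 103.7 in the same order. The gene with the nearest TSS was Cib2 for the exon of otp and CycY for the exon of Pde1c.

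The members were spread over 5 chromosome arms. Arm 2L held 50, or 14.0% of its 358 thresholded regions, 2R held 41 (10.8% of 381), 3L 34 (8.46% of 402), 3R 43 (9.07% of 474) and X 32 (10.1% of 318). None of the 8 thresholded regions of chromosome 4 was a member. Within 10 kb of another member lay 25 of 200 (12.5%), in 13 neighbouring pairs, so the list held 187 separate loci at that distance and 196 at 1 kb.

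Whether the closest pairs are separate sites was not tested. The chinmo summits, ranks 129 and 195, were 200 bp apart and their regions overlapped. The upper of these had 117.3 in replicate 2 and 81.8 in replicate 3, so both favoured replicate 2. The Drat summits, ranks 140 and 190, were 235 bp apart, and those beyond CG4004, ranks 11 and 33, were 954 bp apart. Near cbt, a zinc-finger gene inside the annotated span of ush, ranks 90 and 2 were 979 bp apart, and both summits lay within ush. At greater distance, slbo, the C/EBP factor of border cell migration, had ranks 105 and 116 at 1818 bp, and tara had ranks 30 and 197 at 2024 bp. The members of E(spl)m8-HLH and gro were 2367 bp apart.

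E-boxes had similar shares in the members and in the other regions. The summit window held CANNTG in 84 of 200 members (42.0%; 35.4 to 48.9%) and 743 of 1741 others (42.7%; 40.4 to 45.0%). Windows of the same length centred 300 bp to either side of the members held one in 151 of 400 (37.8%). Windows just upstream of each annotated protein-coding TSS held one in 7687 of 19253 (39.9%). By successive groups of 50 members the number was 19, 15, 22 and 28. CANNTG reads the same class of site on both strands, and all motifs were searched on both.

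The form CAGCTG was found in 19 of 200 members (9.5%; 6.17 to 14.4%) and 185 of 1741 others (10.6%; 9.26 to 12.2%). The windows to either side held it in 17 of 400 (4.25%; 2.67 to 6.70%) for members and 170 of 3482 (4.88%) for others. It was in 1462 of the 19253 windows upstream of a TSS (7.59%) and in 119 of the 1941 lowest pooled regions (6.13%). Within the list it was in 5 of the upper 100 members (5.0%; 2.15 to 11.2%) and 14 of the lower 100 (14.0%; 8.53 to 22.1%). The counts by group of 50 were 2, 3, 5 and 9. It occurred in 11 of 123 promoter members (8.94%) and 8 of 77 others (10.4%).

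**Figure D3:**
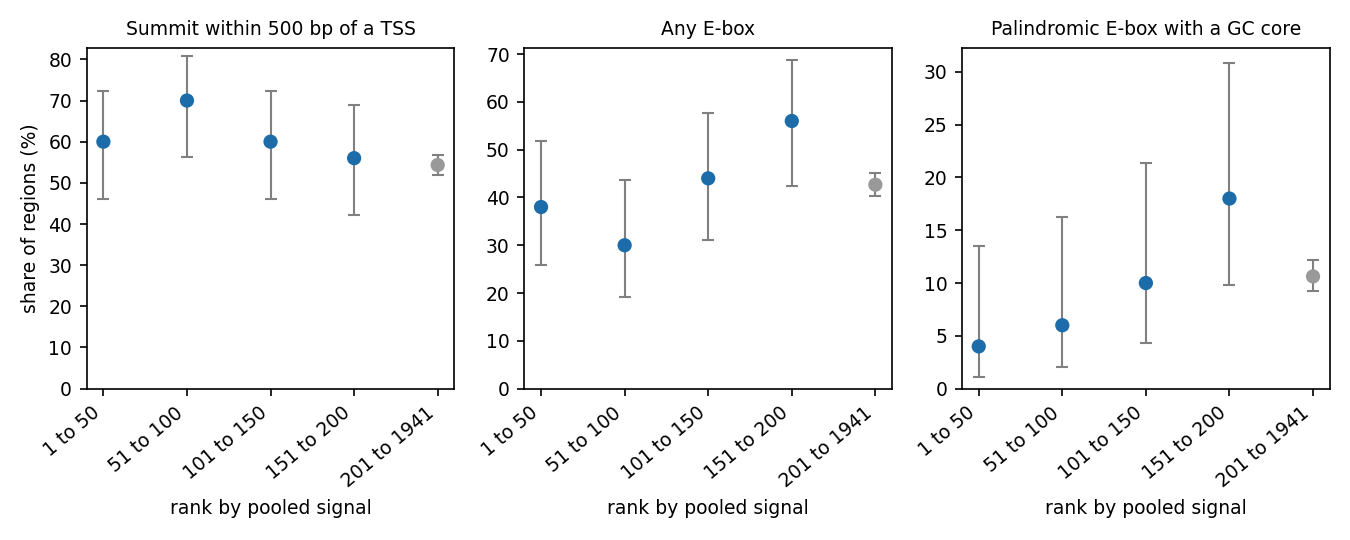
Share of regions, with 95% Wilson intervals as bars, whose summit was within 500 bp of a protein-coding TSS (left), whose summit window held any E-box CANNTG (middle) or the E-box CAGCTG (right), in successive groups of 50 members (blue) and in the other thresholded regions (grey). CAGCTG was in 2, 3, 5 and 9 of 50 members down the list and in 10.6% of the others; intervals of neighbouring groups overlap.

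The 19 members with CAGCTG lay at CG5098, RpS27, CG32264, brat, insb, CG3552, Reph, Hs2st, CG3009, CG11151, CycY, sba, E(spl)m8-HLH, CG12316, CG4497, insc, CG5953, trbl and Mic26-27. In 8 of them the motif's centre was within 25 bp of the summit, and the median distance was 29.5 bp. At RpS27, shown above, the centre lay 6.5 bp from the summit, and the region had 168 in replicate 2 and 184.9 in replicate 3. At insc, the asymmetric division gene inscuteable, it lay 0.5 bp from the summit, with 68.9 in replicate 2 and 109.1 in replicate 3. E(spl)m8-HLH, a Notch-responsive bHLH repressor gene, had it 45.5 bp away, with 98.6 in replicate 2 and 90.5 in replicate 3. Among the other forms, CAAATG was in 23 members (11.5%) and 8.50% of the others, CAGATG in 10 (5.0%) and 6.32%, CACCTG in 6 (3.0%) and 5.57%, and CACGTG in 3 (1.5%) and 1.44%.

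TATCGATA was in 4 of 200 (2.0%; 0.780 to 5.03%), in 45 of 1741 others (2.58%) and in 990 of 19253 TSS windows (5.14%). GGTCACAC, the core of promoter element motif 1, was in 3 members (1.5%), 18 others (1.03%) and 2.60% of TSS windows. GAGAG, the core bound by GAGA factor, was in 19 members (9.5%; 6.17 to 14.4%) and 236 others (13.6%; 12.03 to 15.2%), and in 72 of 400 windows beside the members (18.0%). In ranks 1 to 50 it was in 1 window. GATAAG was in 14 members (7.0%), 4.94% of the others and 8.56% of TSS windows. CAGGTAG, the site of the embryonic factor Zelda, was in 2 members (1.0%), 0.574% of the others and 0.670% of TSS windows. GTGGGAA, a site of Su(H), was in 4 members (2.0%), 1.15% of the others and 1.13% of TSS windows.

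Summits of the members were poor in GC. The summit window had 36.1 ± 9.44% GC in members (mean ± SD, n = 200) and 39.9 ± 10.2% in the others (n = 1741). The windows 300 bp to either side averaged 44.2% in members and 43.2% in the others. The summit window was below its own flanks in 148 of 200 members (74.0%; 67.5 to 79.6%) and 1031 of 1741 others (59.2%; 56.9 to 61.5%). The upper 100 members averaged 34.6% and the lower 100 averaged 37.5%. Promoter members averaged 36.0% and members outside promoters 36.2%. Windows upstream of all TSSs averaged 42.1% and the lowest pooled regions 46.2%. The 19 members with CAGCTG averaged 47.5% and the 181 without it 34.9%. The longest run of A and T had a median of 9 bases in members and 8 in the others. The GC content was looked at after the sequences had been seen. Base content can change how well DNA fragments are recovered and sequenced, and its part in the signal was not tested.

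**Figure D4:**
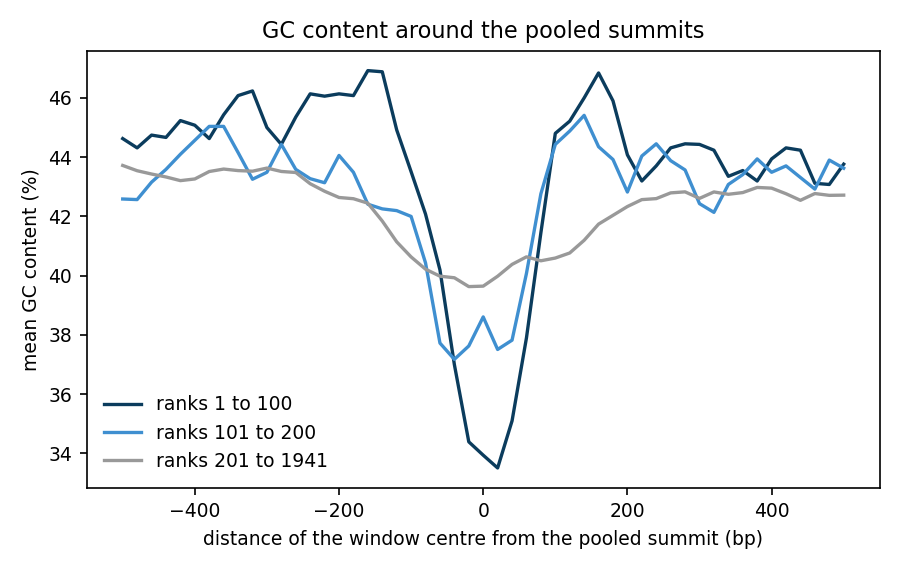
Mean GC content in 51 bp windows every 20 bp from the pooled summit, for the upper 100 members (dark blue), the lower 100 members (light blue) and the other thresholded regions (grey); the plus strand runs left to right. At the summit the curves stand at 33.9%, 38.6% and 39.6%, and the dip is narrower in the members than in the others.

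A wider rule, in which a gene counts when a summit lies in it or within 1000 bp, gave 280 genes with a member, 2.01% of the 13945 annotated. Under the same rule 2249 genes (16.1%) had a thresholded region. The counts below use that rule and are read against those shares, with no test. The genes nearest to the members numbered 192, of which 59 have only a CG number as a name.

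Of the genes for protein synthesis, 11 of 93 cytosolic ribosomal protein genes (11.8%) had a member and 56 had a thresholded region. They were RpS27, RpL7, RpL34b, RpL23A, RpS27A, RpL41, RpL14, RpS10b, RpS20, RpLP0 and RpL22, with pooled signals of 352, 310.0, 218, 211, 209.3, 209.3, 204, 191, 186, 178 and 173. RpL7 had 129.3 in replicate 2 and 179 in replicate 3, and RpS10b had 92.8 in replicate 2 and 96.0 in replicate 3. RpL22 had 60.9 in replicate 2 and 112 in replicate 3, the most unequal of those 3. All 11 summits were promoter summits, from 147 bp upstream of the start (RpS20) to 27 bp inside the gene (RpL7). All of these summits but those of RpL23A, RpS10b and RpL22 also lay within 500 bp of another protein-coding gene's start, as of Nup37 at RpS27 and Nelf-E at RpL14. Which of the genes such a region serves was not tested. Of 75 mitochondrial ribosomal protein genes, 4 had a member (5.33%): mRpS10, mRpL41, mRpS23 and mRpL23, with 555, 541, 448 and 242. Of 52 initiation and elongation factor genes, 3 had one (5.77%): eIF2Bbeta, eIF6 and eEF1gamma, with 707, 289 and 176. The eIF2Bbeta count rests on a summit more than 500 bp from that gene's start, in the promoter of Ugalt.

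The next lists are closer to the known biology of Daughterless. None of 25 genes of da and its bHLH partners had one, while 3 had a thresholded region. Of 12 genes of the Enhancer of split complex, E(spl)m8-HLH and gro had a member (16.7%) and 10 had a thresholded region. The corepressor gene gro, Groucho, had 93.6 in replicate 2 and 105.2 in replicate 3. Of 25 genes of neural precursors and asymmetric division, 3 had a member (12%). They were brat, a translational repressor of neuroblast daughter cells with members of rank 82 and 169, insc, and chn, a zinc-finger gene of sensory organ development. The upper brat region had 110.5 in replicate 2 and 126 in replicate 3, and chn had 98.0 in replicate 2 and 77.5 in replicate 3. None of 16 Notch pathway genes had a member and 6 had a thresholded region.

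Among the other lists, 2 of 22 genes of insulator and promoter architecture proteins had a member (9.09%), Chro with 539 and Trl with 318. Of 23 cell cycle genes, CycB and fzr had one (8.70%). The CycB count rests on a summit beyond the 3′ end of that gene. The fzr count rests on a summit 10513 bp from its own start, in the promoter of CG3009. Of 18 growth control kinase and signalling genes, Lk6, InR and sgg had one (16.7%), with 555, 243 and 189. InR, the insulin receptor gene, had 127 in replicate 2 and 113.8 in replicate 3, and sgg, the GSK-3 kinase gene, had 74.6 in replicate 2 and 112.6 in replicate 3. Of 48 proteasome genes only Rpn5 had a member (2.08%), whose summit is nearer to Hpf1. None of 33 vacuolar ATPase genes, 26 heat shock genes, 27 listed Hox and segmentation genes or 119 genes named for histones had a member, and 7, 3, 3 and 1 of them had a thresholded region. The Hox and segmentation count covers only listed genes with a summit within 1000 bp. Outside it, rank 104 lay 325 bp upstream of oc (ocelliless) and rank 162 lay 4314 bp upstream of slp2 (sloppy paired 2).

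Genes of small structural RNAs, which often give signal in ChIP-seq of unrelated proteins, were near 1 member. A tRNA gene lay within 500 bp of the member at CG8036, and such genes (tRNA, snRNA, snoRNA or rRNA) lay near 14 of the other 1741 regions (0.804%). Any noncoding gene lay within 500 bp of 28 members (14.0%; 9.87 to 19.5%) and 194 others (11.1%; 9.75 to 12.7%). They included the microRNA genes mir-9378 in CG17124 and mir-92a in jigr1, whose members had pooled signals of 202 and 175.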

How the data were processed

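ChIP-seq region lists of 2 da-GFP embryo replicates and of both pooled were analysed. The authors deposited for each region a signal (its definition is not stated), a −log10 q-value and a summit offset, per the deposited notes and the values. Neither aligner, caller, tool versions nor the cutoff on irreproducible discovery is given in the sources used here, and depth is unknown. Pooled dm6 regions were ranked by signal and the highest 200 kept. Positions are 1-based dm6, which is Release 6; all regions fell within its chromosomes. Replicate summits within 200 bp were matched. TSSs and genes came from Ensembl release 115 (BDGP6.54) and DNA from RefSeq. Windows held the summit and 50 bp on each side. Genes were named by rule: ranks 11 to 40, the 5 strongest beyond rank 10 in each position class, the 5 most unequal on each side, the edge of the list, close pairs, list genes and members with CAGCTG. The closing observations name further genes, chosen after their values were seen, as were oc and slp2. Members and the 15 gene lists were chosen with earlier results of these data known. The matching and counting functions were tested on simulated data. Shares carry 95% Wilson intervals; no p-value was computed. Python 3.11.15, numpy 2.4.6, pandas 2.3.3, scipy 1.17.1 and matplotlib 3.10.9 were used. Alternatives changed list length, replicate, windows and distances.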

Additional observations from a re-analysis of the deposited data

How the results depend on the processing

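For 12 results, 72 alternative values were computed, of which 47 stayed within the 95% interval of the value reported, or within 1.5 times a count, and 25 did not. No paired analysis was possible because there was only 1 group. With the 100 highest in place of 200, the share in both replicates' highest was 77.0%, the SD of the log2 ratio 0.32, the share of replicate 2's highest in replicate 3's 77.0%, CAGCTG 5.0%, any E-box 34%, members within 10 kb of another 6.0%, genes at a TSS 93, ribosomal protein genes 3, small RNA genes 0% and GC 34.6%. With 400 the SD was 0.44, genes at a TSS 360 and ribosomal protein genes 25. A shorter or longer list holds fewer or more genes by construction. Promoter share was 52.0% within 250 bp and 71.0% within 1000 bp. In windows of 51 bp CAGCTG was in 4.0% and any E-box in 23.0%; with 100 bp on each side of the summit 17.0% and 67.5%, with GC at 38.6%. Members within 20 kb of another were 19.5%. Lists chosen on a single replicate gave promoter 60.5 to 62.5%, CAGCTG 7.0 to 8.0%, any E-box 34.5 to 39.0%, DRE 1.5 to 2.5%, neighbours within 10 kb 8.5 to 13.0%, small RNA genes 0 to 1.0%, genes at a TSS 169 to 180, ribosomal protein genes 10 to 13 and GC 34.2 to 36.8%. For results outside these ranges the cause was not tested. The GC alternatives, those with 1 region per locus and the SD without 2 members (0.36) were added after seeing the data; merging neighbours within 1000 bp left 196 regions, 61.7% in promoters and 9.69% with CAGCTG. The dm3 lists gave 68.5% in both replicates' 200 highest and an SD of 0.38.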

Other observations

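The genes named here were picked out after the values had been seen, and no theme is drawn from them. Of genes for chromatin proteins, a member lay in an intron of Gug (Grunge, a corepressor of the Atrophin family) with 112.1 in replicate 2 and 116.7 in replicate 3. JIL-1, a histone H3 kinase, had 103.2 in replicate 2 and 88.4 in replicate 3. The intronic member of upSET had 92.7 in replicate 2 and 95.1 in replicate 3, and that of wde (windei) had 93.3 in replicate 2 and 105.7 in replicate 3. HmgZ, of the HMG-box family of DNA-bending proteins, had 169.0 in replicate 2 and 143.5 in replicate 3, so replicate 2 was the higher there. Genes of receptor signalling, picked out in the same way, included Raf, the MAP kinase kinase kinase, with 110.4 in replicate 2 and 174.3 in replicate 3. The EGF receptor ligand gene spi had 83.9 in replicate 2 and 120.5 in replicate 3, and aos, which encodes its secreted inhibitor, had 104.9 in replicate 2 and 80.3 in replicate 3. EcR, the ecdysone receptor gene, had 70.5 in replicate 2 and 115.3 in replicate 3.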
